A study of Mus musculus with 62 samples.

Results

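The transcripts of 10 lipid droplet genes, Plin1, Plin2, Plin3, Plin4, Plin5, Cidec, Fitm1, Fitm2, Hilpda and Bscl2, were followed in white adipose tissue of mice as melanoma-induced cachexia, a wasting of fat and muscle, developed. The genes were chosen by name, with earlier results of these data known, and all 10 were found among the 47643 gene symbols of the deposited table. Female mice aged 2 months were injected with melanoma cells that were cachectic (CAC) or non-cachectic (NCAC), or were mock injected, and tissue was taken 2, 4, 6 and 8 weeks later. The 12 groups hold 5 libraries each, except CAC at 8 weeks with 7, which gives 62 libraries. The series text names NCI Ath/nude mice, which lack a thymus and so most T cells. The samples themselves carry the strain name C57BL6/J, and this conflict was not settled. Their treatment tags all give the cachectic cells, so the arm, week and replicate number were taken from the sample descriptions. The adipose depot is not given in the sources used here, nor is the name of either melanoma line.

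Adipocytes store triglyceride in droplets that bud from the endoplasmic reticulum and are enclosed by a phospholipid monolayer. Seipin (Bscl2) and the FIT proteins (Fitm1, Fitm2) act in the endoplasmic reticulum during droplet assembly. Perilipins (Plin1 to Plin5) coat the surface and control access of lipases, and CIDEC passes lipid between touching droplets so that large ones form. In white adipocytes PLIN1 holds ABHD5 away from the lipase ATGL (Pnpla2) until protein kinase A phosphorylates it.

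Values are TPM, a unit of transcript abundance per transcript length in which all libraries have the same sum. The levels of the 10 genes covered a wide range. Cidec averaged 3465 ± 870 TPM (SD, n = 62), Plin4 976 ± 429, Plin1 683 ± 215 and Plin2 309 ± 88.9 TPM. Fitm2 averaged 146 ± 32.4 TPM, Bscl2 112 ± 22.8, Plin3 63.4 ± 18.5, Plin5 31.3 ± 26.3 and Hilpda 10.4 ± 4.16 TPM. Fitm1, the FIT protein known mainly from striated muscle, averaged 0.757 ± 1.82 TPM, was listed at 0 in 9 libraries and stood under 1 TPM in 51. All 10 passed the filter on low values (a mean of at least 0.5 TPM), Fitm1 narrowly. Differences between the 12 groups took up 48.7% of the variance of Bscl2 on the log2(TPM + 1) scale, 46.6% for Plin5, 45.2% for Plin1 and 36.8% for Fitm2. The share was 26.9% for Cidec, 21% for Plin2, 19.7% for Fitm1, 13.6% for Plin4, 9.67% for Plin3 and 7.30% for Hilpda. With 12 groups among 62 libraries part of such a share arises by chance alone, and that part was not computed.

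**Figure D1:**
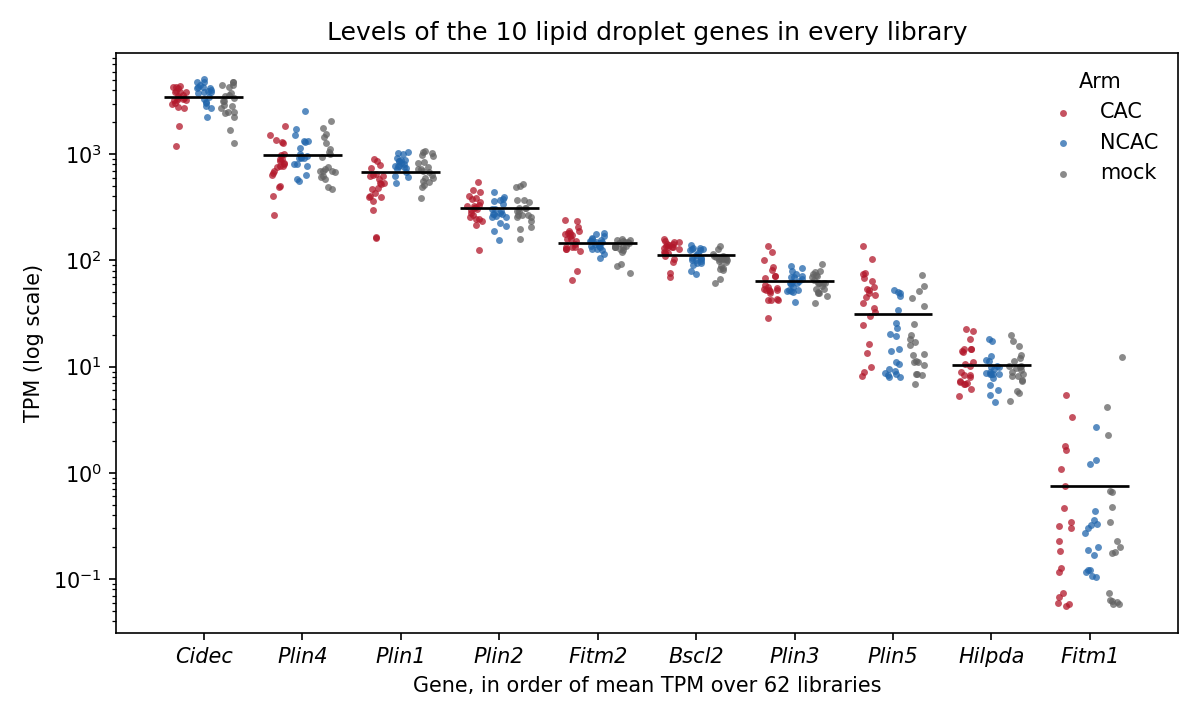
TPM of each gene in every library on a log scale, with points coloured by arm (CAC, NCAC, mock) and a bar at the mean over 62 libraries. Cidec stands highest at 3465 TPM and Fitm1 lowest at 0.757 TPM, and the 9 libraries in which Fitm1 is listed at 0 are not drawn.

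Promoter windows were taken from RefSeq (GRCm38.p6), 250 bases before to 50 after the start, on the strand of the gene, taking the start nearest the annotated gene start where several are listed. They are shown for Plin5, the gene with the largest change, for Plin2, the only other of the 10 with a nuclear receptor motif, and for Bscl2, the gene called in most comparisons. The windows lie at chr17:56117499-56117798 on the minus strand (Plin5), chr4:86670010-86670309 on the minus strand (Plin2) and chr19:8837217-8837516 on the plus strand (Bscl2). Capitals mark AGGTCA, the core motif of nuclear receptors such as the PPARs, TGTTCT, the core of the glucocorticoid receptor motif, and ACGTG, the core of the hypoxia response element, each searched on both strands.
Plin5: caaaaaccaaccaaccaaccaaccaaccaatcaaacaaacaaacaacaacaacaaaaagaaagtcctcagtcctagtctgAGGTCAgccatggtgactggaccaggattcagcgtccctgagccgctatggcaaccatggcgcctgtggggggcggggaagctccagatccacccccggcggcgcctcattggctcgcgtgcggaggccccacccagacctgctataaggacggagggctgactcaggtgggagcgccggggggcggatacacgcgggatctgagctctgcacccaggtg
Plin2: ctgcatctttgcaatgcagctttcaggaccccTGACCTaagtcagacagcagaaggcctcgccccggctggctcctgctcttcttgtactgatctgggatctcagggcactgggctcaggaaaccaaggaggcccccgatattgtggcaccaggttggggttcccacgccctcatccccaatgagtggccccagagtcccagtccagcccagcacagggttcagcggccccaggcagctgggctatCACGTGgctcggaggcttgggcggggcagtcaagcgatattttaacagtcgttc
Bscl2: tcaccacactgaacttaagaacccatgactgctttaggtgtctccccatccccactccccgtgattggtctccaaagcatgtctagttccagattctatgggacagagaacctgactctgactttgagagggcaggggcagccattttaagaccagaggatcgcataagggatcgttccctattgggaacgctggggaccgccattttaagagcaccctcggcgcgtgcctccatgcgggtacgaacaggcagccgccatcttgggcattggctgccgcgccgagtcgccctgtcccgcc
AGGTCA was found in 2 of the 10 windows, Plin5 at position -170 and Plin2 at position -218 on the opposite strand, and 16.3% of 32851 promoter windows hold it. ACGTG was found in 1 member, Plin2, inside the E-box CACGTG at position -4, which is its own reverse complement. Of all windows 19.6% hold the core motif and 7.15% hold this E-box. The glucocorticoid receptor core was found in 0 of the 10 windows, against 19% of all windows, and 2 copies of AGGTCA with 1 base between them in 0, against 0.0396%. TATAA was found in 3 members (Plin4, Plin5 and Hilpda) and in 24.9% of all windows, and GGGCGG in 5 members and 35.7% of all windows. Such matches describe the letters of these windows and were not tested for binding.

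Several libraries stood apart in markers of other cell types. The urothelial list (Upk1a, Upk1b, Upk2, Upk3a, Krt20) summed to over 100 TPM in 16 of 62 libraries, among them 3 of 5 CAC libraries at 6 weeks and 3 of 7 at 8 weeks, against 0 of 10 NCAC and 1 of 10 mock libraries at these weeks. At 6 weeks the fibroblast and progenitor list summed to 150 to 387 TPM in CAC tissue, 262 to 1320 TPM in NCAC tissue and 233 to 3149 TPM in mock tissue. At 8 weeks it summed to 171 to 464 TPM in CAC tissue, 143 to 1538 TPM in NCAC tissue and 632 to 4285 TPM in mock tissue. Mock replicate 5 at 6 weeks and mock replicate 2 at 8 weeks held the highest fibroblast sums of their groups and the lowest adipocyte sums (47083 and 40308 TPM). Among the CAC libraries of 8 weeks, replicates 1 and 6 held the lowest adipocyte sums (55199 and 60117 TPM, with 80587 to 104505 TPM in the other 5) and the highest endothelial sums (674 and 527 TPM). The 10 adipocyte markers were above 0 in every library and summed to 40308 to 108749 TPM over all 62. Between 11783 and 14470 genes reached 1 TPM in a library and mitochondrially encoded genes took 17.2% to 44.4% of the TPM. In bulk tissue fewer cells of a type cannot be told apart from less RNA per cell.

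Bscl2 (chromosome 19, 8837467 to 8848683, GRCm38), which encodes seipin, the protein whose loss causes congenital lipodystrophy, was higher in late CAC tissue than in either other arm. At 6 weeks the CAC libraries held 144, 138, 148, 161 and 140 TPM, the NCAC libraries 78.8, 99.9, 74.3, 101 and 113 TPM and the mock libraries 96.0, 109, 101, 111 and 61.0 TPM. At 8 weeks the 7 CAC libraries lay between 117 and 152 TPM with a median of 130 TPM, the NCAC libraries held 94.5, 105, 125, 91.5 and 127 TPM and the mock libraries 82.4, 67.1, 84.2, 99.5 and 81.4 TPM. Every CAC library of these weeks lay above every mock library. At 6 weeks they also lay above every NCAC library, while CAC and NCAC overlapped at 8 weeks.

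Changes are given on the log2(TPM + 1) scale with limma's standard error, and a change is called at an adjusted p under 0.05. Against mock tissue Bscl2 rose by 0.67 at 8 weeks (SE 0.13, limma adjusted p = 0.0189). At 6 weeks its difference from mock was 0.64 (SE 0.17, limma adjusted p = 0.191), which was not called although the groups did not overlap. Over 6 and 8 weeks together, with week as a term, Bscl2 averaged 138 ± 14.7 TPM in 12 CAC libraries and 89.2 ± 16.9 TPM in 10 mock libraries (mean ± SD). This was a rise of 0.65 (SE 0.10, limma adjusted p = 0.000237), or 1.57-fold. In the same fit against NCAC tissue (101 ± 17.6 TPM in 10 libraries) Bscl2 rose by 0.46 (SE 0.09, limma adjusted p = 0.00269), with 9 of 12 CAC libraries above every NCAC library. Both of these calls were made without each library in turn and under every other setting tried, with adjusted p of at most 0.0316 against mock and 0.0496 against NCAC. Against NCAC at 6 weeks alone the rise was 0.65 (SE 0.13, limma adjusted p = 0.0174), where the median of all genes was shifted as well. With median-ratio rescaling the Bscl2 difference was 0.49 (SE 0.20, limma adjusted p = 0.146, range over the settings tried 0.00344 to 0.230), and the call was lost in 4 of 10 settings. At 8 weeks against NCAC it was 0.29 and not called (SE 0.12, limma adjusted p = 0.277). The 8-week call against mock was lost in several settings, among them without CAC replicate 7 (limma adjusted p = 0.0507) and when urothelial libraries were left out (0.225), and it ranged from 0.00196 to 0.225 over the other settings. The difference between NCAC and mock tissue over 6 and 8 weeks, 0.18, was not called (SE 0.12, limma adjusted p = 0.871, 95% interval -0.08 to 0.44).

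Bscl2 followed the summed adipocyte and liver lists and ran against the fibroblast list. Over the 62 libraries Pearson's r with the adipocyte sum was 0.71 and Spearman's rho 0.64, and with the fibroblast sum r was -0.71 and rho -0.66, all as log2(TPM + 1). Each had an adjusted permutation p of 6.3e-05, the smallest that 100000 permutations and the adjustment over 100 relations gave. Without the 2 libraries farthest from the median sum r was 0.64 and -0.64. Within CAC, NCAC and mock tissue r was 0.80, 0.67 and 0.85 with the adipocyte sum and -0.71, -0.57 and -0.64 with the fibroblast sum. Over the 12 CAC libraries of 6 and 8 weeks alone it was 0.64 with the adipocyte sum but 0.13 with the fibroblast sum. The fibroblast list fell in late CAC tissue, with 6 of its 8 genes called lower against mock and 6 of 8 against NCAC (median log2 changes -1.51 and -1.26). Of all genes 6.65% and 6.39% were called lower in these comparisons. Without the pair of mock libraries named above, Bscl2 rose by 0.54 against mock over 6 and 8 weeks (SE 0.07, limma adjusted p = 0.000108). With the summed liver list (Alb, Apoa2, Ttr, Cyp2e1, Apoc3) Bscl2 had r of 0.66 and rho of 0.61 (each with an adjusted permutation p of 6.3e-05, 0.62 without the 2 farthest libraries), and r of 0.72, 0.49 and 0.62 within CAC, NCAC and mock tissue. Over the 12 late CAC libraries r with the liver sum was -0.03. Cyp2e1, a cytochrome that adipocytes also express, made up 91.5% to 99.9% of this sum in each library, while Alb, the defining hepatocyte gene, averaged 1.74 ± 1.11 TPM in CAC, 17.2 ± 10.7 TPM in NCAC and 28.6 ± 54.4 TPM in mock tissue over 6 and 8 weeks. At 6 weeks the liver list summed to 5934 to 10786 TPM in CAC, 3118 to 9282 TPM in NCAC and 4018 to 8839 TPM in mock tissue. At 8 weeks it summed to 5539 to 13552 TPM in CAC tissue (median 11983), 4586 to 12149 TPM in NCAC tissue (median 7797) and 1941 to 8297 TPM in mock tissue (median 4917). Of its 5 genes, 2 rose (Cyp2e1, Apoc3) and 1 fell (Alb) in CAC against mock over both weeks, and 1 fell (Alb) against NCAC. In these comparisons 11.6% and 15% of all genes were called in either direction. The adipocyte list had median sums of 93499 TPM in CAC, 86383 TPM in NCAC and 82010 TPM in mock tissue at 6 weeks. At 8 weeks these were 90147, 99421 and 58944 TPM. The part of the adipocyte, fibroblast and liver-list transcripts in the change was otherwise not tested.

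**Figure D2:**
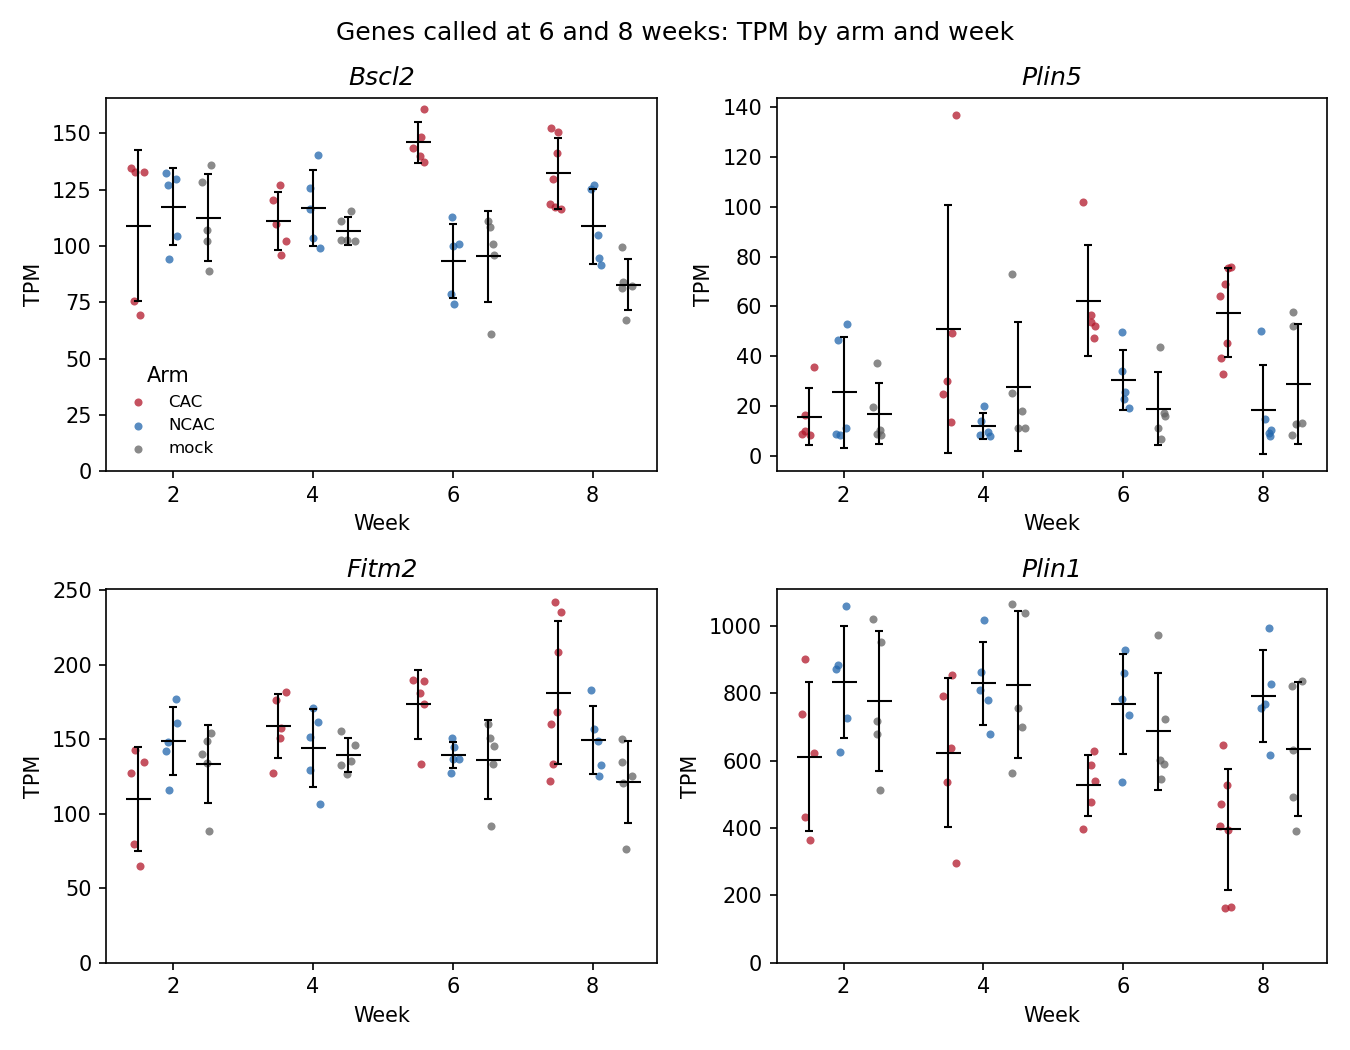
TPM of Bscl2, Plin5, Fitm2 and Plin1 by week (2 to 8) in CAC, NCAC and mock libraries, as points for libraries and bars for the mean ± SD. At 6 and 8 weeks Bscl2 averages 146 and 132 TPM in CAC tissue, and Plin1 averages 526 and 396 TPM there, its lowest group means.

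Across the 12 groups, mean Bscl2 was highest in CAC at 6 weeks (146 ± 9.14 TPM) and CAC at 8 weeks (132 ± 15.8 TPM), followed by NCAC at 2 weeks (118 TPM), and lowest in mock tissue at 8 weeks (82.9 ± 11.5 TPM). Each of the 11 neighbouring pairs in this order overlapped in range, and the same held for the other 9 genes. The deposited table assigns 1 value per symbol, and Bscl2 shares 1728 bases with Gng3 on the opposite strand and 3671 bases with AC129217.1 on its own strand, a gene not analysed here. Gng3 stood at group means of 0.518 to 0.911 TPM, far below Bscl2, and differed by 0.02 between CAC and mock tissue over 6 and 8 weeks (SE 0.10, limma adjusted p = 0.919). The next gene beyond Bscl2, Lrrn4cl (2084 bases away), averaged 55.6 ± 23.7 and 114 ± 76.2 TPM in CAC tissue at 6 and 8 weeks, 26.8 ± 4.79 and 37.6 ± 9.01 TPM in NCAC tissue and 31.3 ± 12 and 28.6 ± 10.2 TPM in mock tissue. It rose over both weeks by 1.09 against NCAC (SE 0.32, limma adjusted p = 0.0257) and by 1.24 against mock (SE 0.35, limma adjusted p = 0.0230). Hnrnpul2 on the other side was called in neither comparison (limma adjusted p = 0.518 against NCAC and 0.985 against mock).

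Fitm2 (chromosome 2, 163466379 to 163472629), the widely expressed FIT protein that helps partition triglyceride into droplets, rose in CAC tissue relative to mock. At 6 weeks it held 190, 174, 133, 189 and 181 TPM in CAC libraries, 127, 137, 145, 137 and 151 TPM in NCAC libraries and 146, 151, 133, 160 and 91.7 TPM in mock libraries. At 8 weeks it ranged from 122 to 242 TPM in CAC tissue with a median of 168 TPM, and stood at 125, 149, 183, 133 and 157 TPM in NCAC and 125, 76.0, 120, 150 and 135 TPM in mock libraries. The arms overlapped at both weeks, and 8 of the 12 CAC libraries exceeded every mock library. Over both weeks Fitm2 averaged 178 ± 38.3 TPM in the 12 CAC libraries and 129 ± 26.9 TPM in the 10 mock libraries (mean ± SD), a rise of 0.47 (SE 0.14, limma adjusted p = 0.0330). This call depended on single libraries. It was lost in 7 of 22 fits without 1 library, with adjusted p from 0.0210 to 0.0681 over the 22. These were CAC replicates 1, 4 and 5 and mock replicate 5 of 6 weeks, and CAC replicates 2 and 6 and mock replicate 2 of 8 weeks. It was also lost in other settings, among them without the pair of mock libraries named above (0.32, SE 0.12, limma adjusted p = 0.0944), without CAC replicates 1 and 6 of 8 weeks (0.38, SE 0.13, limma adjusted p = 0.0759), with the urothelial libraries left out (0.276), with the thermogenic sum described below as a covariate (0.0980) and when mitochondrially encoded genes were removed before scaling (0.0883). Over all settings adjusted p ran from 0.00987 to 0.276. Against NCAC tissue (144 ± 17.0 TPM) the difference was 0.27 and not called (SE 0.11, limma adjusted p = 0.102). The summed liver list was nearly all Cyp2e1, which adipocytes also express and which made up 91.5% to 99.9% of it in each library (above). Fitm2 followed this sum, with r of 0.73 and rho of 0.66 (each with an adjusted permutation p of 6.3e-05, 0.65 without the 2 farthest libraries). Within CAC, NCAC and mock tissue r was 0.86, 0.28 and 0.79, and over the 12 CAC libraries of 6 and 8 weeks 0.83. Fitm2 ran against the fibroblast list, with r of -0.66 and rho of -0.58 (the same adjusted p, -0.59 without the 2 farthest), r of -0.68, -0.66 and -0.72 within the 3 arms and -0.11 over the 12 late CAC libraries. The part of these transcripts in its change was otherwise not tested. An antisense transcript, 2310001K24Rik, overlaps Fitm2 by 673 bases and averaged 0.667 to 1.90 TPM by group. Its difference between CAC and mock tissue over 6 and 8 weeks was 0.49 (SE 0.19, limma adjusted p = 0.0926).

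Plin5 (chromosome 17, 56111601 to 56117596), the perilipin of oxidative tissues that brings droplets and mitochondria together, showed the largest rise of the 10 genes. At 6 weeks the CAC libraries held 102, 52.2, 53.8, 47.2 and 56.6 TPM, the NCAC libraries 49.7, 22.9, 25.8, 19.3 and 34.1 TPM and the mock libraries 15.9, 43.9, 17.2, 11.1 and 6.94 TPM. At 8 weeks CAC libraries ranged from 32.7 to 76.0 TPM with a median of 64.2 TPM, NCAC libraries held 8.02, 9.15, 50.3, 10.5 and 14.6 TPM and mock libraries 13.2, 12.8, 52.1, 8.43 and 57.8 TPM. CAC lay wholly above mock at 6 weeks. At 8 weeks the NCAC library with 50.3 TPM and the mock libraries with 52.1 and 57.8 TPM reached the CAC range.

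Over 6 and 8 weeks Plin5 averaged 59.5 ± 19.1 TPM in 12 CAC libraries, 24.4 ± 15.7 TPM in 10 NCAC libraries and 23.9 ± 19.4 TPM in 10 mock libraries (mean ± SD). The rise was 1.57 against mock (SE 0.32, limma adjusted p = 0.00337), or 2.96-fold. It was 1.48 against NCAC (SE 0.27, limma adjusted p = 0.000997), and both were called without each library in turn. With the urothelial libraries left out the changes were 1.56 (SE 0.41, limma adjusted p = 0.0935, range over the settings 0.00188 to 0.0935) and 1.38 (SE 0.35, limma adjusted p = 0.0533, range 4.52e-05 to 0.0533). Within weeks, the difference from mock was 1.86 at 6 weeks (SE 0.40, limma adjusted p = 0.0892) and 1.31 at 8 weeks (SE 0.44, limma adjusted p = 0.116), neither called. Against NCAC it was 1.03 at 6 weeks (SE 0.27, limma adjusted p = 0.0470), a call kept in 1 of 10 fits without 1 library, with adjusted p from 0.0229 to 0.120, and in 4 of 10 other settings (0.00455 to 0.468). It was 1.87 against NCAC at 8 weeks (SE 0.39, limma adjusted p = 0.0584).

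In the order of the 12 group means, Plin5 was highest in CAC tissue at 6, 8 and 4 weeks (62.4, 57.4 and 50.9 TPM), followed by NCAC at 6 weeks (30.4 TPM), and lowest in CAC at 2 weeks (15.8 TPM) and NCAC at 4 weeks (12 TPM).

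Plin5 moved with transcripts of thermogenic adipocytes. The summed level of Ucp1, Cidea, Dio2, Elovl3, Cox7a1, Cox8b and Ppargc1a ranged from 37.6 to 3947 TPM over the 62 libraries, with all 7 above 0 in every library. At 6 weeks it was 792 to 3013 TPM in CAC tissue, 618 to 3077 TPM in NCAC tissue and 37.6 to 3360 TPM in mock tissue. At 8 weeks it was 809 to 3235 TPM in CAC tissue, 124 to 1349 TPM in NCAC tissue and 141 to 3947 TPM in mock tissue. Pearson's r between Plin5 and this sum, both as log2(TPM + 1), was 0.87 and Spearman's rho 0.87 over 62 libraries, each with an adjusted permutation p of 6.3e-05. Without the 2 libraries farthest from the median sum r was 0.89, and within arms it was 0.90 in CAC (n = 22), 0.86 in NCAC (n = 20) and 0.91 in mock tissue (n = 20). Over the 12 CAC libraries of 6 and 8 weeks it was 0.71. Plin5 also ran against the fibroblast list, with r of -0.54 and rho of -0.55, and r of -0.53, -0.49 and -0.25 within CAC, NCAC and mock tissue. With the endothelial sum r was -0.31 over 62 libraries, and 0.06, -0.57 and -0.69 within these arms. The part of these lists in the Plin5 change was not tested. With the thermogenic sum as a covariate, a setting chosen after the data were seen, Plin5 rose by 0.96 against mock over 6 and 8 weeks (SE 0.17, limma adjusted p = 0.00240). The difference was 0.68 against NCAC (SE 0.18, limma adjusted p = 0.0530). All 7 thermogenic markers had positive log2 differences against both arms over 6 and 8 weeks, and 2 of 7 rose against mock (4.94% of all genes were called higher) and 4 of 7 against NCAC (8.6%).

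**Figure D3:**
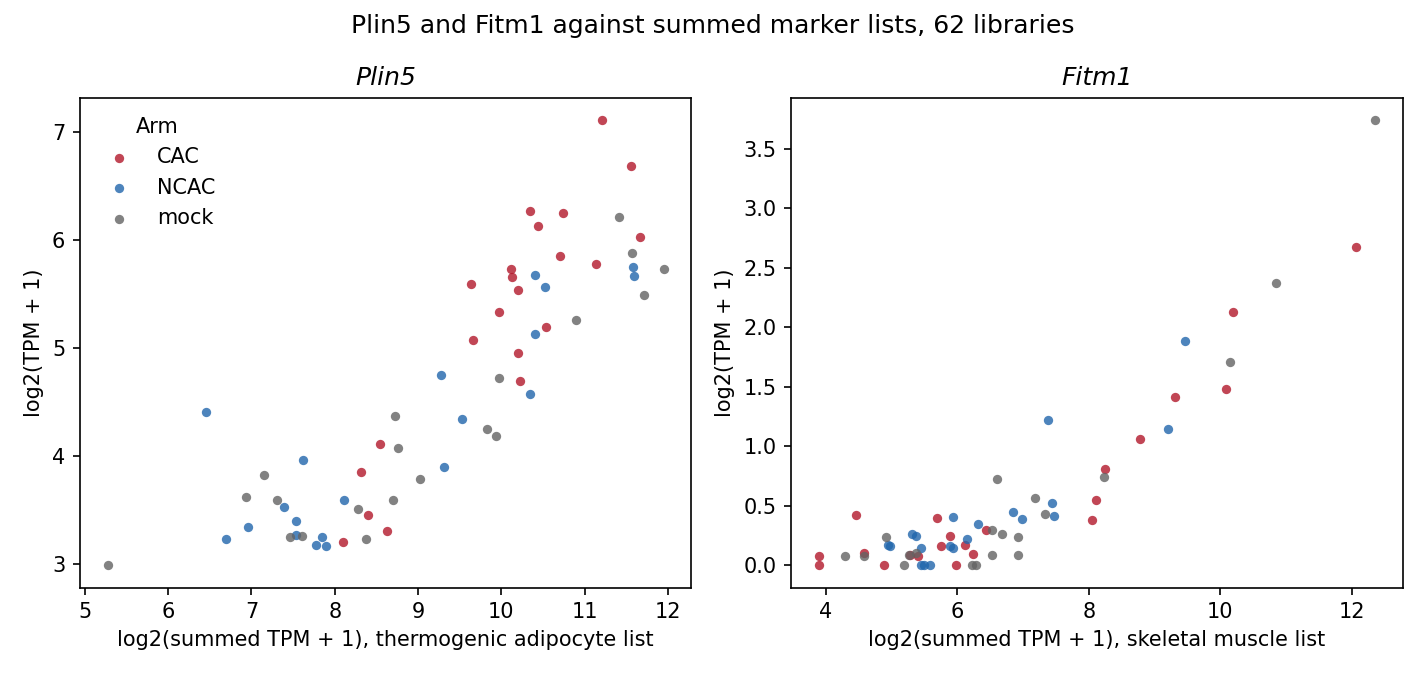
Plin5 against the summed thermogenic adipocyte list and Fitm1 against the summed skeletal muscle list, all as log2(TPM + 1), with 1 point per library coloured by arm (CAC, NCAC, mock). Both genes rise along their list in all arms, with r of 0.87 and 0.90 over 62 libraries.

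On chromosome 17, Plin5 lies between Plin4 (1797 bases away) and Lrg1 (2081 bases away), a secreted glycoprotein of the acute-phase response. Lrg1 averaged 731 ± 155 TPM in CAC, 117 ± 124 TPM in NCAC and 94.9 ± 91.9 TPM in mock tissue at 6 weeks, and 622 ± 426, 70.3 ± 36.1 and 110 ± 67.9 TPM in CAC, NCAC and mock tissue at 8 weeks. Its rise over both weeks was 2.95 against mock (SE 0.49, limma adjusted p = 0.000653) and 3.01 against NCAC (SE 0.42, limma adjusted p = 0.0001). Plin4 on the other side had log2 differences of -0.03 (SE 0.25) and -0.30 (SE 0.25) in the same comparisons, with limma adjusted p of 0.948 and 0.445.

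Plin1 (chromosome 7, 79720218 to 79732903), the main perilipin of white adipocytes and the guard of basal lipolysis, was lower in CAC than in NCAC tissue. At 6 weeks it held 398, 541, 476, 630 and 587 TPM in CAC libraries, 537, 860, 930, 737 and 783 TPM in NCAC libraries and 723, 603, 591, 974 and 544 TPM in mock libraries. At 8 weeks CAC libraries ranged from 163 to 647 TPM with a median of 405 TPM, NCAC libraries held 616, 995, 757, 827 and 767 TPM and mock libraries 837, 390, 633, 823 and 491 TPM. Of the 12 CAC libraries, 8 lay below every NCAC library and 2 below every mock library. Over both weeks Plin1 averaged 451 ± 158 TPM in the 12 CAC, 781 ± 136 TPM in the 10 NCAC and 661 ± 178 TPM in the 10 mock libraries (mean ± SD). The log2 change against NCAC was -0.86 (SE 0.21, limma adjusted p = 0.00878), or to 0.549 of the NCAC level, and it was called without each library in turn. Without CAC replicates 1 and 6 of 8 weeks, the pair with the lowest adipocyte sums, it was -0.62 (SE 0.12, limma adjusted p = 0.00328). It was not called with the urothelial libraries left out (-0.83, SE 0.24, limma adjusted p = 0.0864) or with the urothelial sum as a covariate (-0.69, SE 0.26, limma adjusted p = 0.124). The thermogenic sum as a covariate gave -0.56 (SE 0.25, limma adjusted p = 0.26), and adjusted p ranged from 0.000453 to 0.26 over the settings. Against mock the difference was -0.59 (SE 0.22, limma adjusted p = 0.0864), and that between NCAC and mock tissue was 0.27 (SE 0.16, limma adjusted p = 0.871). The 4 CAC groups held the 4 lowest means of the 12, 624 TPM at 4 weeks, 612 at 2, 526 at 6 and 396 at 8 weeks, and NCAC at 2 weeks the highest, 833 TPM.

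Plin1 followed the adipocyte list, of which it is no member. Over the 62 libraries r was 0.58 (adjusted permutation p = 6.3e-05) and rho 0.47 (0.00045), with r of 0.55 without the 2 farthest libraries and of 0.63, 0.69 and 0.77 within CAC, NCAC and mock tissue. Over the 12 CAC libraries of 6 and 8 weeks r was 0.92 with the adipocyte sum and -0.80 with the endothelial sum, against -0.12 with the endothelial sum over all 62. Replicates 1 and 6 of 8 weeks lay at the extreme of these 12 in Plin1 and in both sums. The r values over the 12 libraries were not computed without this pair and were not tested. At 8 weeks the adipocyte list summed to 55199 to 104505 TPM in CAC tissue (median 90147), 74873 to 103425 TPM in NCAC tissue (median 99421) and 40308 to 90062 TPM in mock tissue (median 58944). Of its 10 genes, 1 rose and 2 fell in CAC against NCAC over 6 and 8 weeks, with a median log2 change of -0.07. Of all genes 8.6% were called higher and 6.39% lower there. The part of adipocyte content in the Plin1 change was otherwise not tested. Kif7, a kinesin 4497 bases from Plin1, averaged 2.64 ± 0.588 and 2.17 ± 0.729 TPM in CAC tissue at 6 and 8 weeks, 3.98 ± 1.3 and 4.99 ± 1.67 TPM in NCAC tissue and 4.77 ± 2.84 and 5.58 ± 1.87 TPM in mock tissue. It fell by 0.68 against NCAC (SE 0.15, limma adjusted p = 0.00489) and by 0.81 against mock (SE 0.19, limma adjusted p = 0.00738). Pex11a on the other side was called in neither (limma adjusted p = 0.130 and 0.0660).

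**Figure D4:**
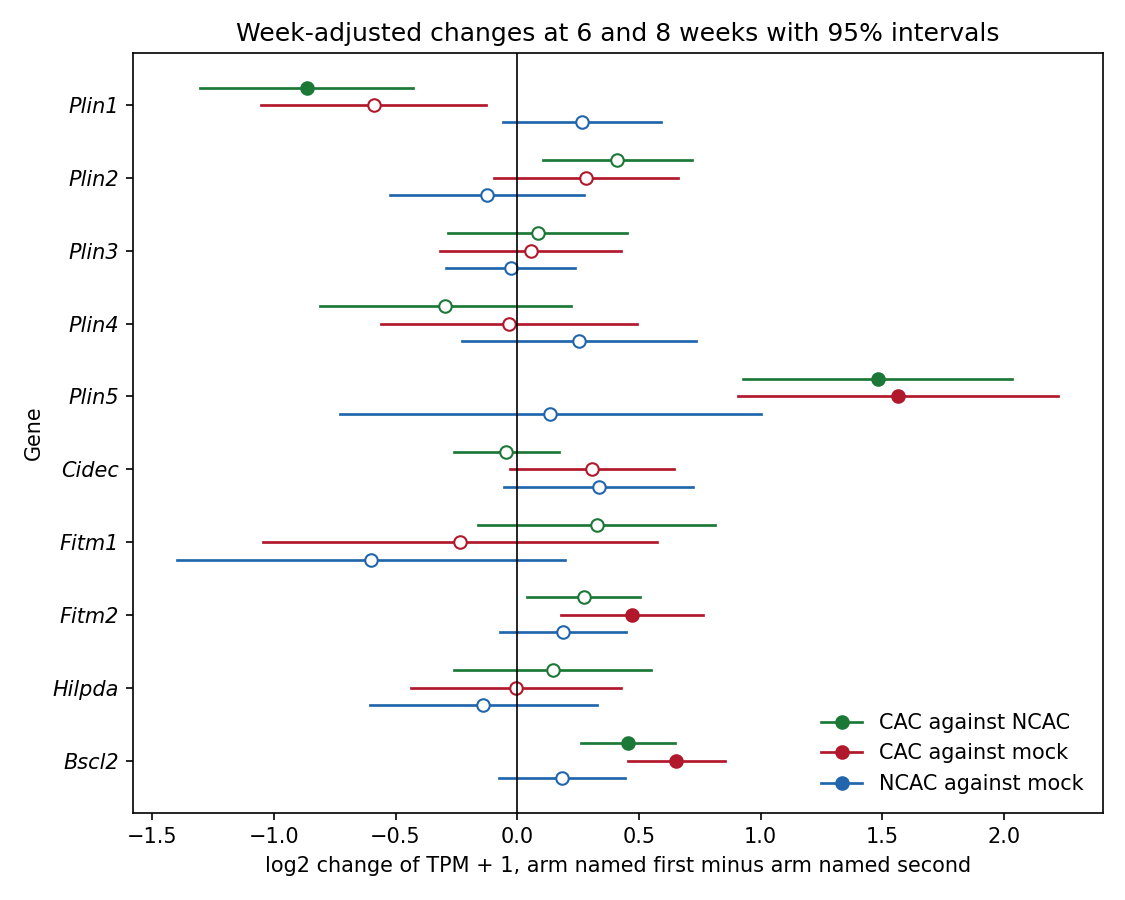
Log2 changes of TPM + 1 over 6 and 8 weeks, with week as a term, for CAC against NCAC, CAC against mock and NCAC against mock, with 95% intervals and filled circles for changes called at an adjusted p under 0.05. Plin5 (1.48 and 1.57), Bscl2 (0.46 and 0.65), Fitm2 (0.47 against mock) and Plin1 (-0.86 against NCAC) are called, and no NCAC change is.

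Counted over the 10 genes, 3 rose (Plin5, Fitm2, Bscl2) and 0 fell in CAC against mock over 6 and 8 weeks. In that comparison 11.6% of 14577 genes were called in either direction, 4.94% as higher and 6.65% as lower. The median log2 change of the 10 genes was 0.17, against -0.06 over all genes. In CAC against NCAC, 2 rose (Plin5, Bscl2) and 1 fell (Plin1), against 15% of all genes called (8.6% higher and 6.39% lower), with a median of 0.21 and an all-gene median of 0.04. A single member, Bscl2, had groups that did not overlap over both weeks against mock, where 0.213% of all genes did so as higher. Within weeks, 1 gene (Bscl2) was called in CAC against mock at 8 weeks (3.07% of all genes) and 0 at 6 weeks by limma (0.357%). At 6 weeks 2 genes, Plin5 and Bscl2, passed an unadjusted p of 0.05 (9.45% of all genes) and lay wholly above mock (1.85%). Bscl2 alone was also wholly above mock at 8 weeks (0.906%). In CAC against NCAC, 2 genes (Plin5, Bscl2) were called at 6 weeks (5.78% of all genes), with Bscl2 wholly above NCAC (6.88%). At 8 weeks limma called 0 (0.528%), and 4 passed an unadjusted p of 0.05 (16.1%). These comparisons share their CAC libraries and are not independent of each other. In NCAC against mock limma called 0 of the 10 genes at any week or over 6 and 8 weeks (0% of all genes), and 1 gene at 8 weeks, Bscl2, passed an unadjusted p of 0.05 (1.24%). The median of all genes was itself shifted by over 0.1 in 3 comparisons, by 0.13 in CAC against NCAC at 6 weeks and by -0.16 and -0.11 in NCAC against mock at 6 weeks and over 6 and 8 weeks.

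At 2 and 4 weeks limma called none of the 10 genes in 60 tests, with adjusted p of at least 0.922 and log2 changes from -0.85 to 1.63. At most 0.00686% of all genes were called in any of these 6 comparisons. An unadjusted p under 0.05 was reached in 2 of the 60 tests. They were Plin4 at 2 weeks (672 ± 229 TPM in CAC and 1043 ± 309 TPM in NCAC tissue, -0.66, SE 0.28) and Plin5 at 4 weeks (50.9 ± 49.8 TPM in CAC and 12 ± 5.12 TPM in NCAC tissue, 1.63, SE 0.52). In these 2 comparisons 3.62% and 4.45% of all genes passed an unadjusted p of 0.05. The difference between the late and the early effect was tested directly, as the mean effect at 6 and 8 weeks minus that at 2 and 4 weeks. For Bscl2 it was 0.67 against mock (SE 0.16, limma adjusted p = 0.0591) and 0.58 against NCAC (SE 0.15, limma adjusted p = 0.0649). For Plin5 it was 1.24 (SE 0.54, limma adjusted p = 0.57) against mock and 0.85 (SE 0.50, limma adjusted p = 0.573) against NCAC. By limma 0 of the 10 genes were called in these tests, in which 0.144% of all genes were called for CAC against mock, 0.638% for CAC against NCAC and 0% for NCAC against mock. At an unadjusted p under 0.05, 3 of the 10 passed in each of the first 2 (7.96% and 10.7% of all genes). A late onset of the changes was therefore not shown.

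Plin2, the perilipin found in most cells, whose protein is stabilised by stored lipid, averaged 351 ± 89.7 TPM in CAC, 266 ± 61.1 TPM in NCAC and 299 ± 114 TPM in mock tissue over 6 and 8 weeks. Its difference was 0.41 from NCAC (SE 0.15, limma adjusted p = 0.0620), with 4 of 12 CAC libraries above every NCAC library, and 0.28 from mock (SE 0.18, limma adjusted p = 0.342). Neither was called, although the interval against NCAC ran from 0.11 to 0.72 and Plin2 was called there without CAC replicates 1 and 6 of 8 weeks. Plin3, the perilipin that moves from the cytosol to nascent droplets, averaged 67.8 ± 30.5, 59.6 ± 11.6 and 60.7 ± 11.8 TPM in CAC, NCAC and mock tissue. The log2 difference of Plin3 was 0.08 between CAC and NCAC (interval -0.28 to 0.45) and 0.06 between CAC and mock (interval -0.32 to 0.43). In 2 CAC libraries of 8 weeks, replicates 1 and 6, it reached 120 and 137 TPM. In these 2 libraries, picked out after their values were seen, Plin1 stood at 163 and 166 TPM, the lowest of the group, and Fitm2 at 242 and 235 TPM, the highest. Their adipocyte sums were the lowest of the group too (above). Plin4, an adipocyte perilipin of small droplets, spread from 268 to 1500 TPM among the CAC libraries, from 556 to 1742 TPM among NCAC and from 496 to 1548 TPM among mock libraries of these weeks. Its intervals reached from -0.81 to 0.22 against NCAC and from -0.56 to 0.49 against mock.

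Cidec, the droplet fusion factor, averaged 3578 ± 465 TPM in CAC, 3711 ± 658 TPM in NCAC and 3063 ± 976 TPM in mock tissue over 6 and 8 weeks. Its interval against NCAC, -0.26 to 0.17, was the narrowest among the genes not called there, and that against mock ran from -0.03 to 0.64. It followed the adipocyte list, with r of 0.79 and rho of 0.65 (each with an adjusted permutation p of 6.3e-05, 0.69 without the 2 farthest libraries) and r of 0.81, 0.77 and 0.75 within CAC, NCAC and mock tissue. Over the 12 CAC libraries of 6 and 8 weeks r was 0.50. Cidec also followed the liver list, nearly all Cyp2e1 (above), with r of 0.72 and rho of 0.59 (the same adjusted p). Within the same 3 arms r with that sum was 0.75, 0.56 and 0.89. With the fibroblast sum r was -0.54. Hilpda, a hypoxia-induced inhibitor of ATGL, averaged 10.8 ± 3.78, 9.67 ± 3.74 and 10.9 ± 4.71 TPM in CAC, NCAC and mock tissue, with intervals of -0.26 to 0.55 against NCAC and -0.44 to 0.43 against mock. It followed the macrophage list, with r of 0.75 and rho of 0.81 (each with an adjusted permutation p of 6.3e-05, 0.75 without the 2 farthest libraries) and r of 0.67, 0.89 and 0.79 within CAC, NCAC and mock tissue. Hilpda also followed the mesothelial markers (r of 0.64) and the fibroblast list (0.59) and ran against the adipocyte list (-0.52). Within the 3 arms r was 0.70, 0.56 and 0.80 with the mesothelial sum and 0.69, 0.74 and 0.79 with the fibroblast sum. The relation was thus not particular to the macrophage list. Fitm1 averaged 0.808 ± 1.03, 0.314 ± 0.338 and 2.02 ± 3.87 TPM in CAC, NCAC and mock tissue of these weeks, with intervals of -0.16 to 0.81 against NCAC and -1.04 to 0.58 against mock. It followed the skeletal muscle list, with r of 0.90 and rho of 0.78 (each with an adjusted permutation p of 6.3e-05, 0.87 without the 2 farthest libraries) and r of 0.91, 0.88 and 0.91 within CAC, NCAC and mock tissue. Its highest value, 12.3 TPM, was in mock replicate 3 at 6 weeks, where the muscle list also had its highest sum, 5208 TPM, of a range from 13.9 to 5208 TPM over the series. Beside Fitm1 on chromosome 14, Psme1 (1168 bases away) rose by 0.36 against NCAC (SE 0.09, limma adjusted p = 0.0108) and was not called against mock (0.33, SE 0.11, limma adjusted p = 0.0628). Dcaf11 (5551 bases away) rose by 0.37 against NCAC (SE 0.09, limma adjusted p = 0.00744) and by 0.34 against mock (SE 0.09, limma adjusted p = 0.0209).

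**Figure D5:**
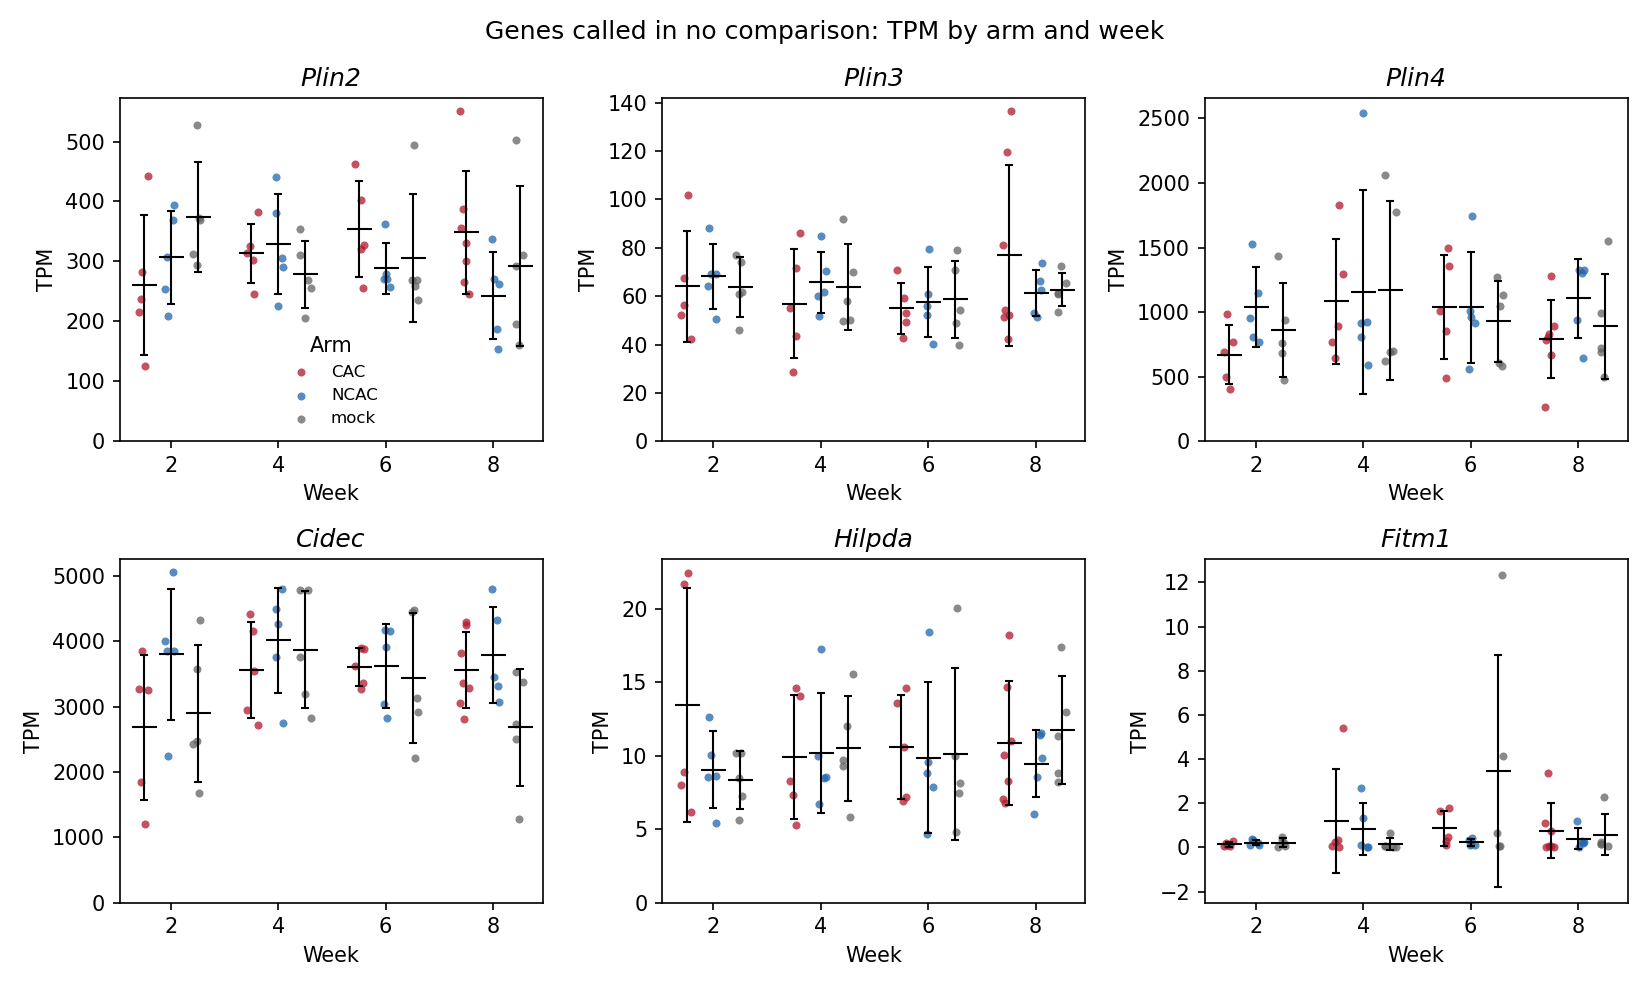
TPM of Plin2, Plin3, Plin4, Cidec, Hilpda and Fitm1 by week (2 to 8) in CAC, NCAC and mock libraries, as points for libraries and bars for the mean ± SD. No change of these genes was called, and single libraries such as the mock library with 12.3 TPM of Fitm1 set the SD of their groups, so that its lower end falls below 0.

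As a description over 62 libraries, each gene was matched to the 3 most similar of 9720 genes by Pearson's r of log2(TPM + 1). Plin1 was closest to Mgll (r = 0.95), the monoglyceride lipase, then Car3 and Cd1d1 (0.91 each). Plin5 was closest to Cpt1b (0.91), the carnitine palmitoyltransferase of muscle and brown fat, then Gk (0.88) and Cox7a1 (0.88). Fitm2 was closest to Ormdl3 (0.94) and March5 (0.92), with Pnpla2 at 0.89, and Bscl2 to Abhd5 (0.84), Pex16 (0.83) and Slc36a2 (0.83). Cidec was closest to Nr1h3 (0.91), which encodes the liver X receptor alpha, Fitm1 to the muscle gene Myoz1 (0.92), Hilpda to Ensa (0.90), Plin4 to Fzd4 (0.84), Plin3 to Tmem50a (0.81) and Plin2 to Cycs (0.78). Among the members themselves, the closest were Cidec and Fitm2 (0.72), Fitm2 and Bscl2 (0.66) and Cidec and Bscl2 (0.64), while Plin1 and Plin5 had r = -0.45. All these values share libraries, a common TPM sum and the cell composition of the tissue.

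The other genes of droplet metabolism were read from lists chosen with earlier results of these data known. Each count over 6 and 8 weeks stands against 11.6% of all genes called in CAC against mock (4.94% higher, 6.65% lower) and 15% in CAC against NCAC (8.6% higher, 6.39% lower). Of 8 lipolysis genes over 6 and 8 weeks, 2 rose and 1 fell in CAC against mock and likewise in CAC against NCAC, with list medians of -0.08 and -0.17. Pnpla2, the rate-limiting triglyceride lipase, averaged 2593 ± 417 TPM in CAC and 1726 ± 355 TPM in NCAC tissue (0.59, SE 0.12, limma adjusted p = 0.00239). Mock tissue averaged 1712 ± 413 TPM (0.64, SE 0.14, limma adjusted p = 0.00637). Abhd5, its co-activator held by PLIN1, averaged 255 ± 49.1 TPM in CAC, 161 ± 37.8 TPM in NCAC and 145 ± 38.1 TPM in mock tissue. It rose by 0.66 against NCAC (SE 0.13, limma adjusted p = 0.00185) and 0.85 against mock (SE 0.14, limma adjusted p = 0.000875). Mgll fell to 367 ± 114 TPM in CAC tissue, against 621 ± 121 TPM in NCAC tissue (-0.79, SE 0.17, limma adjusted p = 0.00402) and 583 ± 147 TPM in mock tissue (-0.67, SE 0.18, limma adjusted p = 0.0187).

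Of 7 genes of lipid uptake and caveolae, 6 fell against NCAC and 4 against mock, and none rose, with list medians of -0.56 and -0.80. Of all genes 6.39% fell against NCAC and 6.65% against mock. Cav1, the main caveolar coat protein, fell to 409 ± 141 TPM in CAC tissue, against 1098 ± 452 TPM in NCAC (-1.37, SE 0.22, limma adjusted p = 0.000468) and 1061 ± 435 TPM in mock tissue (-1.31, SE 0.22, limma adjusted p = 0.000725). Cav2 fell by 1.0 against NCAC (SE 0.18, limma adjusted p = 0.000997), and Vldlr, a lipoprotein receptor, fell by 0.94 against mock (SE 0.19, limma adjusted p = 0.00326). Caveolin genes are also expressed by fibroblasts and endothelium. The fibroblast list fell in the same comparisons (above), while of 6 endothelial genes 1 rose against NCAC and 1 fell against mock. Their part in the change was not tested. Of 9 triglyceride synthesis genes 2 rose in each comparison, where 8.6% of all genes rose against NCAC and 4.94% against mock. Lpin1, a phosphatidate phosphatase, averaged 324 ± 181 TPM in CAC libraries against 148 ± 51.9 TPM in mock libraries (1.08, SE 0.26, limma adjusted p = 0.00944). Gpam, which starts glycerolipid synthesis, rose by 0.52 against mock (SE 0.16, limma adjusted p = 0.0415).

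Of 10 tested droplet growth genes, 2 rose and 0 fell against NCAC and 0 rose and 1 fell against mock, where 15% and 11.6% of all genes were called. Cidea, the CIDE protein of brown fat, averaged 393 ± 170 TPM in CAC and 160 ± 172 TPM in NCAC tissue (2.16, SE 0.49, limma adjusted p = 0.00595). Mock tissue averaged 229 ± 263 TPM and the difference was not called (2.0, SE 0.72, limma adjusted p = 0.0722). Aup1, a droplet protein of ubiquitin-dependent degradation, rose by 0.37 against NCAC (SE 0.10, limma adjusted p = 0.0171). Cideb, a CIDE protein of liver, was lower in CAC tissue (0.522 ± 0.319 TPM) than in mock tissue (1.90 ± 1.66 TPM, -0.78, SE 0.23, limma adjusted p = 0.0320). Among 12 transcription regulators 3 rose and 1 fell in each comparison, against 15% and 11.6% of all genes called. Ppard rose by 0.78 against NCAC (SE 0.13, limma adjusted p = 0.00064) and Ppargc1a by 0.89 against mock (SE 0.29, limma adjusted p = 0.0462). Nr3c1, the glucocorticoid receptor, fell by 0.57 against mock (SE 0.14, limma adjusted p = 0.00944). Pparg itself, at 172 ± 26.6 TPM in CAC and 147 ± 34.3 TPM in NCAC tissue, was not called (0.24, SE 0.13, limma adjusted p = 0.207).

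Of 15 PPAR and fasting targets, 4 rose and 3 fell against NCAC and 2 rose and 0 fell against mock, where 15% and 11.6% of all genes were called. Acot1, a fasting-induced acyl-CoA thioesterase, rose by 1.86 against NCAC (SE 0.38, limma adjusted p = 0.00266) and Cpt1b by 1.84 (SE 0.47, limma adjusted p = 0.0117). Pck1, an enzyme of glyceroneogenesis, fell by 1.09 against NCAC (SE 0.31, limma adjusted p = 0.0216) and Angptl4, the secreted inhibitor of lipoprotein lipase, fell by 0.97 (SE 0.28, limma adjusted p = 0.0248). Of 11 tested hypoxia targets, 2 rose in each comparison, against 8.6% of all genes called higher against NCAC and 4.94% against mock. The pair against NCAC was Ddit4 (1.87 against NCAC, SE 0.48, limma adjusted p = 0.0118) and Vegfa (0.44, SE 0.12, limma adjusted p = 0.0191). Adipoq, the adipocyte hormone adiponectin, averaged 3283 ± 442 TPM in CAC and 4426 ± 1198 TPM in NCAC tissue (-0.41, SE 0.13, limma adjusted p = 0.0389). Ucp1 was not called against NCAC (2.39, SE 0.83, limma adjusted p = 0.0567) or mock (2.22, SE 1.11, limma adjusted p = 0.201).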

How the data were processed

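RNA from white adipose tissue was extracted with Trizol, made into libraries with a TruSeq stranded mRNA kit and sequenced on a NovaSeq instrument, per the labels' protocols. The same protocol text speaks of tissue 3 weeks after LLC cells were injected, a time and a cell line that no sample carries, and this conflict was not settled. The authors deposited 1 table of TPM with 47643 gene symbols and 62 libraries, in which each library sums to 1e+06. Per the submitters' processing notes the genome build is mm10. Read depth, aligner, counter, annotation and strand setting: not given in the sources used here, so no counting interval is printed. The labels call the replicates biological, and nothing says more of their source.

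Each value was taken as log2(TPM + 1), and the 14577 genes whose mean reached 0.5 TPM were tested (within weeks, genes that did not vary dropped out) with limma 3.58.1 in R 4.3.3 (lmFit, eBayes with trend and robust prior, two-sided, Benjamini-Hochberg over all genes tested, called at an adjusted p under 0.05). Libraries of the 2 arms compared entered alone, with week as a term where 6 and 8 weeks were joined. Rose and fell are used of called genes. The fit was also run on simulated data with independent normal noise for each gene, and its outcome is not given here. Those data held no differences in cell composition between libraries, so they cannot speak to such differences. The 10 genes, the gene lists and the marker lists were chosen with earlier results of these data known. Besides the 10 genes, up to 2 called genes per list, comparison and direction are named by size of change, with Pnpla2, Cidea, Adipoq, Ucp1, Angptl4 and Pparg always, and a member's neighbours on the chromosome could be named. Gpat3 and Cavin1 were matched as Agpat9 and Ptrf, and coordinates come from GENCODE M21 (GRCm38, also called mm10). Correlations with marker sums form a family of 100 relations with 100000 permutations each. Alternatives were another pseudocount (0.1), no filter, median-ratio rescaling, removal of mitochondrially encoded genes, all libraries in 1 fit, a replicate block, library weights, the urothelial sum as a covariate, urothelial libraries left out (sum over 100 TPM) and each library left out. The thermogenic covariate and the fits without a pair of mock libraries and without a pair of CAC libraries were chosen after seeing the data.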

Additional observations from a re-analysis of the deposited data

Results flagged for a closer look

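Among 120 sets of 1 gene in 1 arm and week, 13 held a library whose gap to its nearest neighbour exceeded Dixon's critical value for the group size. For normally distributed values chance gives about 1 in 20. The rule was applied to TPM without a log, and whether these values were normally distributed was not tested. The 13 sets are therefore not read as an excess. No gene had effects that differed between late and early weeks by the test. For Plin5 the highest library stood apart in 4 groups, at 73.2 TPM in mock replicate 5 at 4 weeks, 102 TPM in CAC replicate 1 at 6 weeks, 43.9 TPM in mock replicate 2 at 6 weeks and 50.3 TPM in NCAC replicate 3 at 8 weeks. For Fitm1 it did so in 5 groups, at 5.39 TPM in CAC replicate 2 and 0.655 TPM in mock replicate 2 at 4 weeks, and at 3.38 TPM in CAC replicate 3, 1.21 TPM in NCAC replicate 3 and 2.27 TPM in mock replicate 2 at 8 weeks. Plin2 stood apart at 363 TPM in NCAC replicate 5 and 495 TPM in mock replicate 2 at 6 weeks, and Plin4 at 2545 TPM in NCAC replicate 2 at 4 weeks. Fitm2 was lowest at 133 TPM in CAC replicate 3 at 6 weeks, with the next library at 174 TPM.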

How the results depend on the processing

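Across 10 genes, 18 comparisons and all settings, 5020 log2 changes were recomputed. Of these, 4926 stayed on their side of the threshold, 41 calls were lost, 53 were gained and 0 called values changed sign. Most of the 5020 values belong to genes and comparisons without a call as reported, where no call could be lost. The 41 losses fall on the few called ones, so 4926 of 5020 does not measure how stable the calls were. Without a call, 341 changed sign. Of 860 group means in TPM under other scalings or without a library, 92 moved by over 1 SD. The cause of lost and gained calls was not tested. Depth is unknown.

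As reported, the genes called numbered 0 and 1 in CAC against mock at 6 and 8 weeks, 2 and 0 in CAC against NCAC at 6 and 8 weeks, 3 in each over both weeks, and 0 elsewhere. These are counts of the lipid droplet genes alone. The share of all genes called under the other settings, or without a library, is not given here. Whether a changed count went beyond a change in calls over all genes was therefore not tested. The number of lipid droplet genes called changed under some settings. With all 62 libraries in 1 fit it was 1 and 2 in CAC against mock at 6 and 8 weeks, 1 and 2 in CAC against NCAC at 6 and 8 weeks, and 1 (Bscl2) in each late minus early difference involving CAC. With library weights it was 4 in CAC against mock at 6 weeks, 1 (Fitm1) in NCAC against mock at 6 weeks, 4 and 4 in CAC against NCAC at 6 and 8 weeks and 5 over both, and 1 and 3 in the late minus early differences of CAC against mock and NCAC. With urothelial libraries left out it was 0 in CAC against mock at 8 weeks, 0 in CAC against NCAC at 6 weeks, and 1 (Bscl2) in each over 6 and 8 weeks. The urothelial covariate gave 0 in CAC against NCAC at 6 weeks. The thermogenic covariate gave 1 (Plin5) in CAC against mock at 6 weeks and 1 (Bscl2) in CAC against NCAC over 6 and 8 weeks. In CAC against NCAC at 6 weeks, no filter gave 1, median-ratio rescaling 0 and removal of mitochondrial genes 1 (Plin1). At 8 weeks, a pseudocount of 0.1, median-ratio rescaling and removal of mitochondrial genes gave 1 each (Plin5).

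Leaving out 1 library gave 0 to 1 genes in CAC against mock at 6 weeks and at 8 weeks, 1 to 2 and 0 to 1 in CAC against NCAC at 6 and 8 weeks, 2 to 4 and 3 to 4 over 6 and 8 weeks against mock and NCAC, 0 to 1 in each late minus early difference involving CAC, and 0 in the other comparisons.

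Correlations of the deviations of same-numbered libraries ran from -0.65 to 0.57 over the 12 comparisons within weeks. In none of these were all 5 pairs over 0.1, so the numbers were not taken as pairs. The most were 4 of 5 (-0.05 to 0.39) in CAC against NCAC at 4 weeks and 3 of 5 at 8 weeks (-0.04 to 0.53), and 3 of 5 in CAC against mock at 2 weeks. A fit with them as a replicate block called 0 genes in CAC against mock at 8 weeks (Bscl2 0.68, SE 0.15, limma adjusted p = 0.158) and 2 (Plin5, Bscl2) over 6 and 8 weeks (Fitm2 0.43, SE 0.14, limma adjusted p = 0.0875), and 4 (Plin1, Plin2, Plin5, Bscl2) in CAC against NCAC over 6 and 8 weeks.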
